A study of Homo sapiens with 6 samples.

Results

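Matrix metalloproteinases (MMPs) are zinc-dependent enzymes that cut proteins of the extracellular matrix, and tissue inhibitors of metalloproteinases (TIMPs) block them by binding at the active site. The 10 genes described here are the matrix metalloproteinase genes MMP1, MMP2, MMP3, MMP10, MMP14 and MMP15, the inhibitor genes TIMP1, TIMP2 and TIMP3, and RECK, a membrane-anchored glycoprotein known as an inhibitor of several of these enzymes. They were matched by gene name, and all 10 were found among the 58735 genes of the count table. MMP1 and MMP2 were picked because they differed in opposite directions between the groups compared here, so their differences are given as a description. Calls that include them are counted below only because the counts cover all members, and they are no test of MMP1 or MMP2. The other members were chosen by family, with earlier results of these data known.

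RNA sequencing counts were given for 6 libraries of ES2, an established human ovarian cancer cell line labelled as high-grade serous carcinoma. The siUAP1 group (3 libraries, labelled UAP1 knockdown) was transfected with small interfering RNA against UAP1, which encodes the enzyme that makes UDP-N-acetylglucosamine, the sugar donor of many glycans. The control group (3 libraries, labelled WT) received a control siRNA. All 6 had the same lipid reagent and medium with serum, the medium was changed after 6 hours, and RNA was taken at 48 hours. The labels list 2 UAP1 siRNAs and do not say whether they were pooled, and they leave unstated whether each replicate was its own culture. The p-values therefore cover only the spread among these libraries, which may be technical. Libraries held 21267240 to 25972582 counts, and 15768 genes had enough counts to be tested. UAP1 averaged 23.43 ± 1.7 CPM (counts scaled to a common library size) in siUAP1 libraries and 382.2 ± 54.1 CPM in control libraries (SD, n = 3 each), a 16.3-fold fall. Of the markers set for the line, the keratin genes KRT7, KRT8 and KRT18 and the vimentin gene VIM were abundant (with log2 fold changes of 0.58, 0.78, 0.50 and -0.14 in the fit with replicate numbers as a block, all past its threshold), PAX8 and WT1 stood at between 1.01 and 2.02 CPM in the group means, EPCAM and CDH1 at under 0.1 CPM, and MUC16 had 0 counts in all 6 libraries. Bulk counts cannot tell apart fewer cells of a type and less RNA per cell.

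Most MMPs are made as inactive proenzymes and are switched on outside the cell by other proteases. MMP1 is the interstitial collagenase, which cuts fibrillar collagen, and MMP2 (gelatinase A) cuts denatured collagen and basement membrane collagen. MMP14, a membrane-bound collagenase, activates the MMP2 proenzyme at the cell surface, and TIMP2 takes part in that step by linking the pair, while an excess of TIMP2 blocks it. TIMP3 differs from the other TIMPs in being held in the matrix. Transcript levels do not measure the enzymes' activity, which also depends on activation and inhibition.

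The metalloproteinase members share a catalytic site in which 3 histidines hold the zinc ion. The stretch of coding sequence that spans these histidines is shown for each enzyme because all 6 metalloproteinase members hold it. It was read from GENCODE transcripts (GRCh38), each lies in a single coding exon, and the histidine codons are in capitals, 5′ to 3′ on the coding strand.
MMP1: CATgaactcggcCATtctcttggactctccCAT
MMP2: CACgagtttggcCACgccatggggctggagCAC
MMP3: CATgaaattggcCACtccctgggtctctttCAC
MMP10: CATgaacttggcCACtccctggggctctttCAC
MMP14: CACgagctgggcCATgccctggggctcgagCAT
MMP15: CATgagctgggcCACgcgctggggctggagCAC
These windows lie at chr11:102795549-102795581 (minus strand, exon 5 of 10) for MMP1, chr16:55491827-55491859 (plus strand, exon 8 of 13) for MMP2, chr11:102840535-102840567 (minus strand, exon 5 of 10) for MMP3, chr11:102776718-102776750 (minus strand, exon 5 of 10) for MMP10, chr14:22843283-22843315 (plus strand, exon 5 of 10) for MMP14 and chr16:58040563-58040595 (plus strand, exon 5 of 10) for MMP15. The windows were found with a pattern that fixed the bases CA of the 3 histidine codons and a GA and a GG between them. It also allowed only T or C as the third base of those codons and only A or G after the GA. The fixed bases are the same in all windows by the search itself, and the limited ones had fewer ways to differ. Both raise every identity given here. Of the 33 positions, 18 were the same in all 6 enzymes, the fixed bases included. MMP3 and MMP10 were the closest pair, with 31 of 33 positions identical (93.9%), and MMP1 and MMP2 had 18 of 33 (54.5%), the lowest identity of any pair. The closeness of MMP3 and MMP10 went beyond the site: 2.88% of the words of 50 bases in MMP3 transcripts stood in MMP10 as well, so reads from such stretches could be counted for either gene.

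MMP1, the collagenase, was by far the most abundant member, and its transcript was lower in siUAP1 libraries. MMP1 (ENSG00000196611, GRCh38 chromosome 11, 102789920 to 102798160, minus strand) stood at 3824, 3806 and 3949 CPM in siUAP1 replicates 1 to 3, against 7184, 7063 and 7090 CPM in control replicates 1 to 3. All 3 siUAP1 libraries lay well below all 3 control libraries, and the libraries of a group lay close together, with a coefficient of variation of 2.02% in siUAP1 and 0.896% in control libraries. The group means were 3860 ± 77.8 CPM in siUAP1 and 7112 ± 63.7 CPM in control libraries (SD, n = 3 each), a difference of -45.7%. On the log2 scale the difference was -0.88 (SE 0.0495 with the replicate number as a block, 95% interval -0.98 to -0.78), and within replicate numbers 1 to 3 it was -0.91, -0.89 and -0.84. MMP1 alone took 0.385%, 0.383% and 0.388% of all counts in siUAP1 libraries and 0.718%, 0.717% and 0.697% in control libraries. By FPKM, which also divides by gene length, it ranked 8th, 10th and 10th in siUAP1 libraries and 5th, 6th and 5th in control libraries among 19951 protein-coding genes. It thus stayed among the most abundant transcripts of the cells in both groups.

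MMP2, the gelatinase, was higher in siUAP1 libraries. MMP2 (ENSG00000087245, GRCh38 chromosome 16, 55389700 to 55506691, plus strand) stood at 320.2, 233.1 and 162.5 CPM in siUAP1 replicates 1 to 3, against 112, 83.65 and 65.62 CPM in control replicates 1 to 3. The lowest siUAP1 library lay above the highest control library. In both groups the library numbered 1 was the highest and the library numbered 3 the lowest, and the coefficient of variation was 33.1% in siUAP1 and 26.8% in control libraries, far wider than for MMP1. The means were 238.6 ± 79 CPM in siUAP1 and 87.09 ± 23.4 CPM in control libraries (SD, n = 3 each), a 2.74-fold difference. Within replicate numbers 1 to 3 the fold differences were 2.86, 2.79 and 2.48. The log2 fold change was 1.44 with the replicate number as a block (SE 0.0512, 95% interval 1.33 to 1.54) and 1.45 without it (SE 0.26), so the block left the size in place and narrowed its error.

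**Figure D1:**
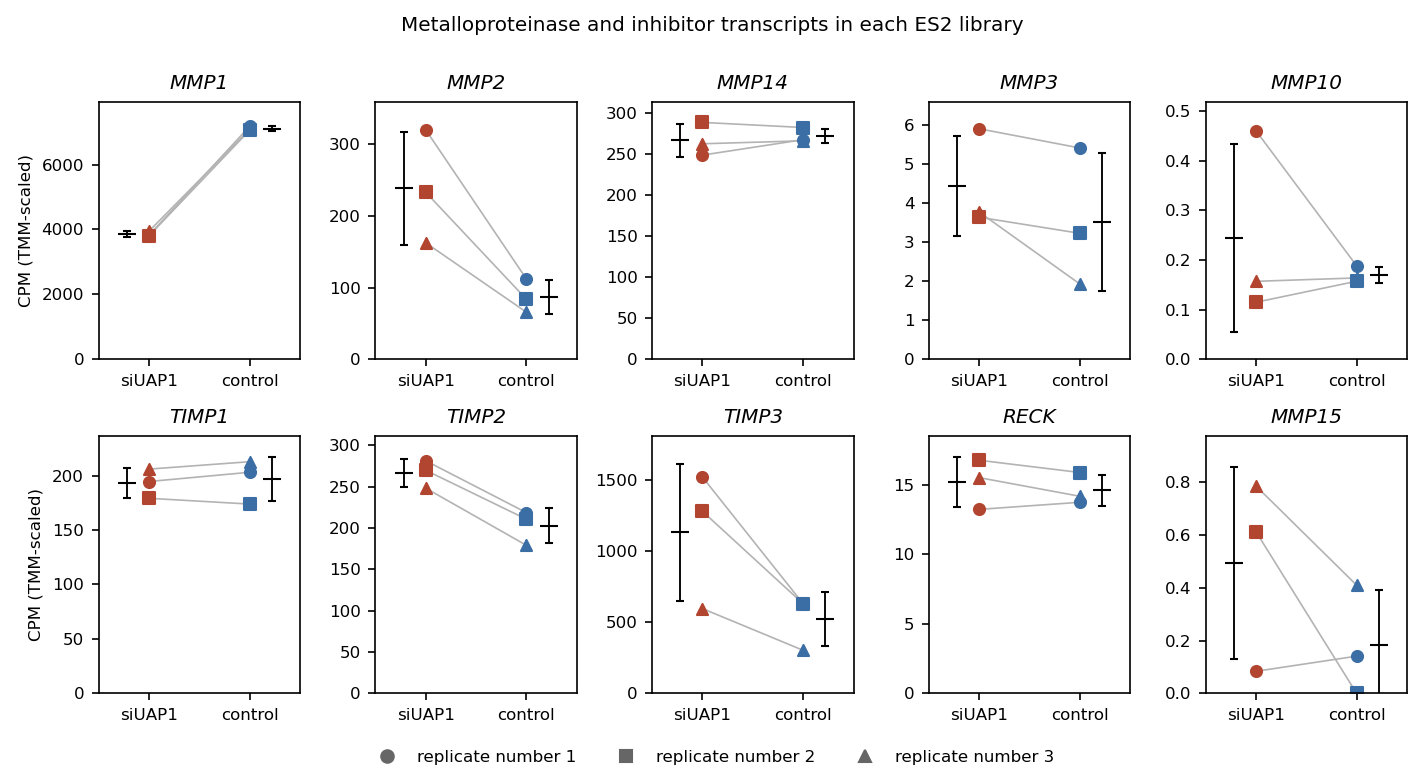
TMM-scaled CPM (y axes, each from 0) of the 10 members in siUAP1 (red, left) and control libraries (blue, right). Symbols give the replicate number, grey lines join libraries of the same number, and the black bars are mean ± SD over 3 libraries (the lower bar of MMP15 in control is cut at 0). MMP1 libraries lie lower in siUAP1 (3806 to 3949 against 7063 to 7184 CPM), and lines of MMP2, TIMP2 and TIMP3 run downwards to control in every pair.

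The plot of CPM by library shows that MMP2 and TIMP3 differed between replicate numbers in both groups alike, with siUAP1 the higher in each of the 3 pairs. The groups share replicate numbers in their titles, and the names of libraries of the same number share a code whose meaning is not stated. Over all tested genes libraries of the same number deviated together from their group means (correlations of 0.552, 0.454 and 0.584), so values from the blocked fit stand beside those of the groups alone. With the block, 2556 of 15768 tested genes (16.2%) were called, 1430 of them (9.07%) higher and 1126 (7.14%) lower, and 1195 were called without replicate 3. Of the 9 members that could be tested, 4 were called with the block: MMP1, MMP2, TIMP2 and TIMP3. In the fit of the groups alone, 17 genes (0.108%) were called, 5 (0.0317%) higher and 12 (0.0761%) lower, and of the members MMP1 was among the lower. The groups' CPM did not overlap for 3 of the 9 members (MMP1, MMP2 and TIMP2), against 12.4% of all tested genes. Since MMP1 and MMP2 were picked for this contrast, nothing is read from these counts. In the following, rose and fell refer to edgeR's quasi-likelihood test with the block and Benjamini-Hochberg adjustment over all tested genes at 0.05.

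Of the other metalloproteinase members, MMP14, MMP3 and MMP15 did not pass the test with all 6 libraries, and MMP10 had too few counts for it. MMP14 (ENSG00000157227, GRCh38 chromosome 14, 22836557 to 22849027, plus strand), which activates the MMP2 proenzyme, stood at 248.4, 288.2 and 262.2 CPM in siUAP1 libraries, against 267.2, 282 and 265.8 CPM in control libraries. The groups overlapped, with means of 266.3 ± 20.2 CPM in siUAP1 and 271.7 ± 8.94 CPM in control libraries (SD, n = 3 each). It had a log2 fold change of -0.03 (SE 0.0466, edgeR adjusted p = 0.732), with a 95% interval of -0.13 to 0.07.

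MMP3 (stromelysin 1; ENSG00000149968, GRCh38 chromosome 11, 102835801 to 102843803, minus strand) cuts many matrix proteins and can activate other proMMPs. It was at 5.902, 3.636 and 3.769 CPM in siUAP1 libraries, against 5.41, 3.224 and 1.925 CPM in control libraries. The siUAP1 library was the higher in each pair, by 0.12, 0.17 and 0.94 on the log2 scale, but the groups overlapped. The log2 fold change of 0.38 (SE 0.196, edgeR adjusted p = 0.207, 95% interval -0.02 to 0.79) did not pass the threshold. MMP10 (stromelysin 2; ENSG00000166670, GRCh38 chromosome 11, 102770503 to 102780628, minus strand) had 11, 3 and 4 counts in siUAP1 libraries and 4, 4 and 4 counts in control libraries. MMP15, a membrane-bound relative of MMP14 (ENSG00000102996, GRCh38 chromosome 16, 58025566 to 58046901, plus strand), had 2, 16 and 20 counts in siUAP1 libraries and 3, 0 and 10 counts in control libraries. It passed the filter on low counts by a small margin, and its log2 fold change of 1.48 (SE 0.69, edgeR adjusted p = 0.16) did not pass the threshold. Without replicate 1 it did (1.94, edgeR adjusted p = 0.0434), so its call turns on libraries of 2 and 3 counts.

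Among the inhibitors, TIMP3 and TIMP2 rose and TIMP1 did not pass the test. TIMP3 (ENSG00000100234, GRCh38 chromosome 22, 32801701 to 32863043, plus strand) stood at 1523, 1282 and 597.1 CPM in siUAP1 replicates 1 to 3, against 631.1, 631.1 and 303.4 CPM in control replicates 1 to 3. Both groups had their lowest value in the library numbered 3, and siUAP1 replicate 3 lay below control replicates 1 and 2, so the groups overlapped although siUAP1 was the higher in every pair. The means were 1134 ± 480 CPM in siUAP1 and 521.9 ± 189 CPM in control libraries (SD, n = 3 each), a 2.17-fold difference. Within replicate numbers 1 to 3 the log2 differences were 1.27, 1.02 and 0.98. With the block TIMP3 had a log2 fold change of 1.09 (SE 0.0534, edgeR adjusted p = 2.74e-13, 95% interval 0.98 to 1.20), while in the groups alone it was 1.12 (SE 0.362, edgeR adjusted p = 0.457), so the call rests on the pairing.

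TIMP2 (ENSG00000035862, GRCh38 chromosome 17, 78852977 to 78925387, minus strand) stood at 281.1, 269.6 and 248 CPM in siUAP1 replicates 1 to 3, against 218.4, 210.5 and 178.9 CPM in control replicates 1 to 3. All 3 siUAP1 libraries lay above all 3 control libraries, and the difference was smaller than that of TIMP3. The means were 266.2 ± 16.8 CPM in siUAP1 and 202.6 ± 20.9 CPM in control libraries (SD, n = 3 each), a 1.31-fold difference. The log2 fold change was 0.40 with the block (SE 0.0467, edgeR adjusted p = 8.52e-07, 95% interval 0.30 to 0.49), with 0.36, 0.36 and 0.47 in pairs 1 to 3. In the groups alone it was 0.39 (SE 0.107, edgeR adjusted p = 0.317), so this call rests on the pairing too.

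TIMP1 (ENSG00000102265, GRCh38 chromosome X, 47582313 to 47586789, plus strand), an inhibitor of most secreted MMPs, stood at 194.5, 179.1 and 205.9 CPM in siUAP1 libraries, against 203, 173.8 and 212.7 CPM in control libraries. The groups overlapped fully, with means of 193.2 ± 13.5 CPM in siUAP1 and 196.5 ± 20.3 CPM in control libraries (SD, n = 3 each). It had a log2 fold change of -0.02 (SE 0.0468, edgeR adjusted p = 0.818), with a 95% interval of -0.12 to 0.07 that lies below those of TIMP2 and TIMP3. RECK (ENSG00000122707, GRCh38 chromosome 9, 36036433 to 36124451, plus strand) was at 13.23, 16.76 and 15.51 CPM in siUAP1 libraries, against 13.74, 15.88 and 14.17 CPM in control libraries, and its log2 fold change of 0.05 (SE 0.0972, edgeR adjusted p = 0.779, 95% interval -0.15 to 0.25) did not pass either.

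**Figure D2:**
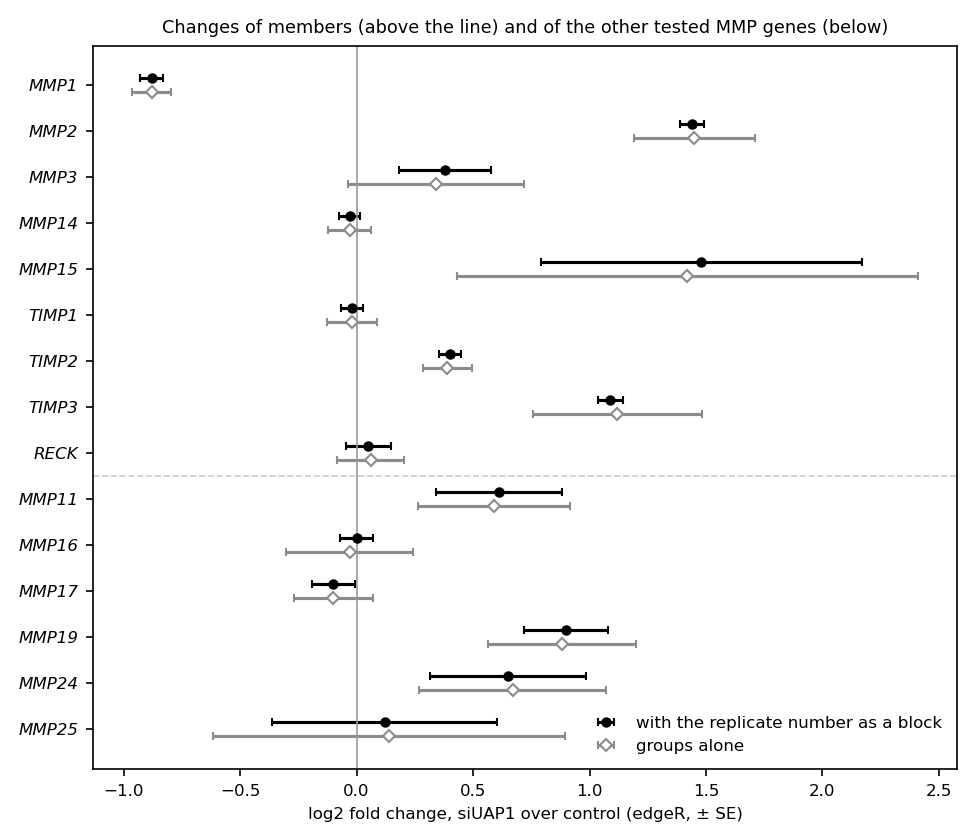
log2 fold change of siUAP1 over control (x axis, edgeR, ± SE) for the 9 tested members, above the dashed line, and the 6 other tested MMP genes, below it. Filled black points are from the fit with the replicate number as a block and open grey points from the groups alone. MMP1 lies at -0.88, MMP2 at 1.44 and TIMP3 at 1.09 with the block, MMP14, TIMP1 and RECK lie within 0.06 of 0, and the grey bars are wider than the black ones in every row.

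The plot of fold changes sets the members beside the rest of the family. Of 18 further MMP and TIMP genes, 6 passed the filter on low counts, and of these MMP19 rose. MMP19, a secreted metalloproteinase of basement membrane proteins, was at 6.195, 6.698 and 3.887 CPM in siUAP1 libraries, against 3.998, 3.145 and 1.966 CPM in control libraries. It had a log2 fold change of 0.90 (SE 0.18, edgeR adjusted p = 0.000875), with 0.62, 1.07 and 0.95 in pairs 1 to 3, and 0.88 (edgeR adjusted p = 0.553) in the groups alone. The gene TMEM198B on the opposite strand overlaps MMP19 and had 216% of its counts, so the MMP19 value is uncertain. The others did not pass: MMP11 (0.61, SE 0.271), MMP24 (0.65, SE 0.336), MMP25 (0.12, SE 0.482), MMP17 (-0.10, SE 0.0916) and MMP16 (0.00, SE 0.0706). MMP11, MMP24 and MMP25 are also overlapped by tested genes with more counts than their own. The 12 that could not be tested included MMP7, MMP9, MMP12, MMP13 and TIMP4, and MMP8, MMP27 and MMP28 had 0 counts in all 6 libraries.

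Levels of different genes were compared per length, by the authors' FPKM. In siUAP1 libraries the order was MMP1 (1940 ± 39 FPKM), TIMP3 (243.9 ± 103), TIMP1 (124.1 ± 8.55), MMP14 (59.06 ± 4.6), MMP2 (47.88 ± 15.8), TIMP2 (46.79 ± 2.92), RECK (2.484), MMP3 (2.144), MMP10 (0.1374) and MMP15 (0.1107). In control libraries it was MMP1 (3580 ± 41.9 FPKM), TIMP1 (126.5 ± 13.6), TIMP3 (112.4 ± 40.5), MMP14 (60.35 ± 1.73), TIMP2 (35.66 ± 3.61), MMP2 (17.51 ± 4.71), RECK (2.394), MMP3 (1.704), MMP10 (0.09577) and MMP15 (0.04132), with SD over 3 libraries in both lists. Neighbours in the order whose libraries overlapped were TIMP3 and TIMP1, MMP14 and MMP2, MMP2 and TIMP2, RECK and MMP3, and MMP10 and MMP15 in siUAP1 libraries. In control libraries they were TIMP1 and TIMP3, RECK and MMP3, and MMP10 and MMP15, so that MMP2 was separated there from both TIMP2 and MMP14.

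**Figure D3:**
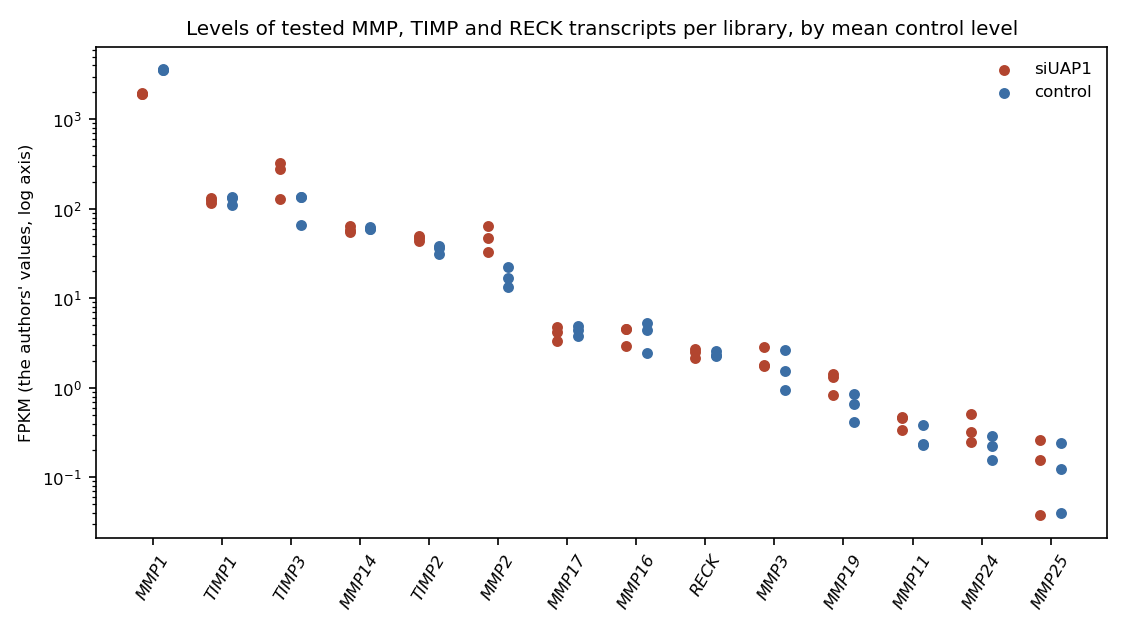
FPKM per library (log y axis) of the tested MMP, TIMP and RECK genes, siUAP1 libraries (red) left of control libraries (blue), ordered by mean control level. MMP15 is left out because 1 control library is at 0. MMP1 stands at 1916 FPKM or more in every library, the 3 TIMP genes, MMP14 and MMP2 lie between 13.2 and 327 FPKM, and the others lie lower.

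The plot of levels shows that MMP1 outweighed the other collagen-cutting enzymes in both groups. MMP1 made up 94%, 94.4% and 95.5% of the summed FPKM of the 6 metalloproteinase members in siUAP1 libraries, and 97.7%, 97.8% and 98% in control libraries. That sum was 2041, 2029 and 2078 FPKM in siUAP1 libraries, against 3707, 3619 and 3654 FPKM in control libraries. The sum of TIMP1, TIMP2 and TIMP3 was 501, 439 and 304.4 FPKM in siUAP1 libraries, against 305.5, 283.5 and 234.5 FPKM in control libraries. The ratio of the metalloproteinase sum to the TIMP sum was thus 4.07, 4.62 and 6.83 in siUAP1 libraries and 12.1, 12.8 and 15.6 in control libraries, without overlap. These sums carry the differences of MMP1 and TIMP3 that are already given, and a ratio of transcripts is not a ratio of active proteins.

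The proportions of the 3 genes of the MMP2 activation step are given as a description, since MMP2 was picked for its difference. The FPKM ratio of MMP2 to MMP14 was 1.17, 0.732 and 0.561 in siUAP1 libraries, against 0.379, 0.268 and 0.223 in control libraries. The ratio of MMP2 to TIMP2 was 1.30, 0.988 and 0.748 in siUAP1 libraries, against 0.586, 0.454 and 0.419 in control libraries. The ratio of MMP14 to TIMP2 was lower in siUAP1 libraries, with 1.11, 1.35 and 1.33 in siUAP1 libraries, against 1.54, 1.69 and 1.88 in control libraries. The ratios with MMP2 restate that difference. The ratio of MMP1 to MMP2, the members picked for opposite differences, was 29.9, 40.9 and 60.9 in siUAP1 libraries and 161, 211 and 271 in control libraries.

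MMP1 lies in a cluster of 9 MMP genes that spans 435.2 kb of chromosome 11 (102520508 to 102955734), all on the minus strand. MMP1 held 99.92% of the cluster's counts, and 7 of its 8 neighbours had too few counts to be tested. MMP3, which starts 45.6 kb from the start of MMP1, was the only tested neighbour, and MMP10, at 17.5 kb on the other side, was the nearest. MMP8 and MMP27 had 0 counts throughout, and MMP7, MMP12, MMP13 and MMP20 had 5, 14, 38 and 1 counts over the 6 libraries. At this depth a difference of the neighbours other than MMP3 could not be measured.

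**Figure D4:**
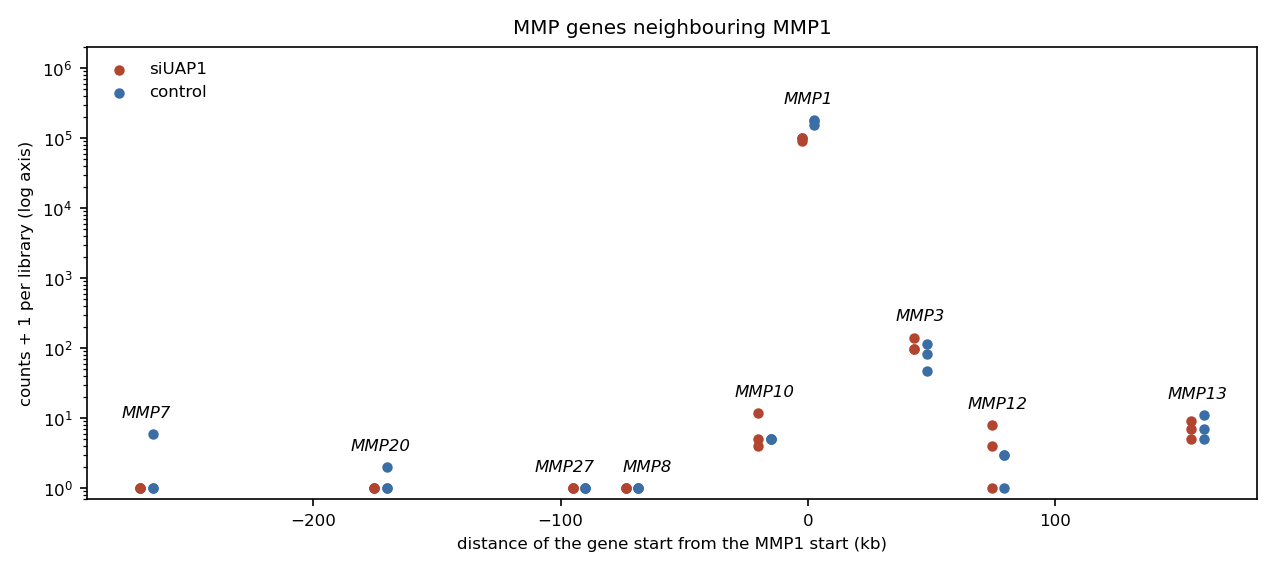
Counts + 1 per library (log y axis) of the 9 MMP genes of the chromosome 11 cluster against the distance of each gene's start from that of MMP1 (x axis, kb), siUAP1 libraries in red, left of control libraries in blue. MMP1 libraries stand between 91343 and 179665 counts, MMP3 libraries between 47 and 141, and the other 7 genes at 11 counts or fewer.

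The plot of the cluster also bears on which counts can be trusted. The pseudogene WTAPP1 (GRCh38 chromosome 11, 102746968 to 102836766, plus strand) overlaps MMP10, MMP1 and MMP3 on the opposite strand, and strand use in counting is not given in the sources used here. WTAPP1 had 28, 27 and 14 counts in siUAP1 libraries, against 51, 116 and 42 counts in control libraries, and fell with a log2 fold change of -1.62 (SE 0.293, edgeR adjusted p = 0.000268), with -1.66 (edgeR adjusted p = 0.317) in the groups alone. Its counts were 0.0349% of those of MMP1, 48.3% of those of MMP3 and 927% of those of MMP10. WTAPP1 shared no word of 50 bases with transcripts of MMP3 or MMP10, so there the overlap may be of gene spans alone. Its effect on the counts of MMP3 and MMP10 was not tested, and both stay uncertain. The fall of WTAPP1 is uncertain too, because MMP1 overlaps it with many times its counts and shares words of 50 bases with it. For the other members, overlapping genes had at most 0.253% of the member's counts (SYN1 for TIMP1). Words of 50 bases shared with other genes made up 8.28% of TIMP2 transcripts, 2.92% of MMP1 and 2.57% of MMP2, and none of MMP14, MMP15, TIMP1, TIMP3 or RECK.

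TIMP3 and TIMP1 are close relatives with unlike values here, and their promoters are shown for that reason. RefSeq promoters (GRCh38.p14) were matched for 6 of the 10 members, and the 250 bases before the start that RefSeq gives are printed for chr22:32801455-32801704 (TIMP3, plus strand) and chrX:47582186-47582435 (TIMP1, plus strand), 5′ to 3′, with GC boxes in capitals. The start in the deposited table, given above, lies inside both windows. By that annotation the last few bases of the TIMP3 window belong to the gene. Of the TIMP1 window a large part does (47582313 to 47582435), with the GC box nearer its end. MMP1, MMP2, MMP3 and TIMP2 had no entry.
TIMP3: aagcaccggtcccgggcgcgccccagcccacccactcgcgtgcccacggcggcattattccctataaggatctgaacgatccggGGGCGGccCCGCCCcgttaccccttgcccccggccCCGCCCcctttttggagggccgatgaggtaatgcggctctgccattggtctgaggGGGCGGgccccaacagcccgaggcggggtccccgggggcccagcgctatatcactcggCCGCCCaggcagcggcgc
TIMP1: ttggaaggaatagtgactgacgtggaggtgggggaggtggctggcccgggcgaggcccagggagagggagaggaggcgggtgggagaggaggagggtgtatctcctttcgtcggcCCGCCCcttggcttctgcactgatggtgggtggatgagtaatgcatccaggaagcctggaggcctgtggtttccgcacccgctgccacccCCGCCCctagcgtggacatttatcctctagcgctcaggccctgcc
The GC box searched for was GGGCGG or, on the other strand, CCGCCC, and it stood 5 times in the TIMP3 window and 2 times in the TIMP1 window. It was also found 5 times in MMP15, 3 times in RECK, 1 time in MMP14 and not in MMP10, while 42.6% of 35116 promoters of the same length hold it at least once. By the starts of the deposited table, the RECK window (36036663 to 36036912) lies wholly inside the gene. So does most of the MMP15 window (58025504 to 58025753), with most of its GC boxes. The counts for RECK and MMP15 are therefore not all of sequence before the gene. The windows were 72.4% (TIMP3) and 64.8% (TIMP1) G and C. The AP-1 word TGACTCA, or TGAGTCA on the other strand, was in none of the 6 windows and in 4.2% of all promoters. The ETS word AGGAAG, or CTTCCT, was in the TIMP1 window and in 28.7% of all promoters, and the TATA word TATAAA, or TTTATA, was in the MMP10 window and in 10.7% of all promoters. The GC box shares no matched base with the other words in these windows. A match is a run of letters only, and its absence says nothing of a factor.

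Lists of genes that act with the metalloproteinases were counted in the same fit, where the median log2 fold change of all tested genes was -0.00295. For comparison with every list below, 9.07% of all tested genes rose and 7.14% fell in that fit. In the groups alone, only the transcription factor gene ETV5 was called from the lists below. The other rises and falls rest on the pairing. These lists were drawn up with earlier results of these data known. Of 20 genes of MMP substrates in the matrix, 17 were tested, 12 rose and 5 did not pass, with a median of 0.329. The collagen I chain gene COL1A1 averaged 1819 ± 501 CPM in siUAP1 and 1025 ± 370 CPM in control libraries (SD, n = 3 each; log2 fold change 0.85, SE 0.0546, edgeR adjusted p = 4.98e-11). The basement membrane genes COL4A1 (0.66, SE 0.0517) and NID1 (0.68, SE 0.122) rose as well, as did COL1A2 (1.86, SE 0.537), which stood under 1 CPM in both groups and was not called without replicate 2 or 3. Without replicate 3, 8 of the 17 rose, against 742 of 16106 tested genes. COL4A1 overlaps COL4A2 on the opposite strand and COL1A2 overlaps AC002074.1, so both values are uncertain.

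COL1A1 also counts among the fibroblast markers, and the marker values are given beside MMP2 and TIMP3. The 5 fibroblast markers summed to between 1370 and 2370 CPM in siUAP1 and between 777 and 1460 CPM in control libraries, nearly all from COL1A1. The receptor gene PDGFRB averaged 15.13 CPM in siUAP1 and 7.453 CPM in control libraries, and 3 of the 3 markers with enough counts to be tested rose: COL1A1, COL1A2 and PDGFRB (0.95, SE 0.13, edgeR adjusted p = 7.58e-06), with a median of 0.951. Of the other 2, DCN had 0 counts in all 6 libraries, and LUM averaged 0.0558 CPM in siUAP1 and 0.0424 CPM in control libraries. Which cells in these cell line libraries gave the marker values was not tested, nor was the relation of those values to MMP2 and TIMP3. The 6 leukocyte markers summed to between 0.314 and 1.09 CPM in siUAP1 and between 0.451 and 0.708 CPM in control libraries. The 4 endothelial markers, nearly all CDH5, summed to between 135 and 174 CPM in siUAP1 and between 134 and 171 CPM in control libraries, and the 2 erythroid markers to at most 0.0393 CPM in any library.

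Genes that activate MMPs or hold them at the cell surface went both ways. Of 20, 17 were tested, 5 rose, 1 fell and 11 did not pass (median 0.0367). The urokinase gene PLAU, a plasminogen activator, averaged 713.1 ± 75.5 CPM in siUAP1 and 521.2 ± 33.7 CPM in control libraries (SD, n = 3 each; log2 fold change 0.45, SE 0.0482). The integrin gene ITGAV rose (0.48, SE 0.0473), while the urokinase receptor gene PLAUR fell (-0.50, SE 0.051). The convertase gene FURIN, which cuts membrane-bound proMMPs such as that of MMP14, and the integrin gene ITGB3 rose as well. Of 14 further genes of inhibition and clearance, 13 were tested and 4 rose: THBS1, which binds proMMP2 (0.66, SE 0.0476), the collagen uptake receptor gene MRC2 (0.32, SE 0.0692), the scavenger receptor gene LRP1 (0.24, SE 0.0475) and PCOLCE (0.20, SE 0.0517). The remaining 9 did not pass (list median 0.236). PCOLCE was not called without replicate 1 or 3, and STAT6 on the opposite strand overlaps LRP1 with 79.9% of its counts.

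Among 24 transcription factor genes known to act on MMP promoters, 6 rose, 4 fell and 14 did not pass (median 0.0302). ETV5, an ETS factor, averaged 64.78 ± 3.36 CPM in siUAP1 and 118 ± 13.5 CPM in control libraries (SD, n = 3 each; log2 fold change -0.86, SE 0.0529, edgeR adjusted p = 2.14e-11), and it was the only gene of these lists called in the groups alone as well (edgeR adjusted p = 0.0453). EGR1 (-0.82, SE 0.0971) also fell, and SNAI2 (0.50, SE 0.0608) and JUND (0.39, SE 0.0684) rose. JUND is an AP-1 gene, and of the other AP-1 genes JUN (-0.26) and FOSL2 (-0.18) fell. FOS (-0.18), FOSB (-0.16), JUNB (0.19) and FOSL1 (0.11) did not pass. DGKG overlaps ETV5 with 12.9% of its counts.

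Of 20 cytokine and receptor genes upstream of MMP expression, 18 were tested, 9 rose, 1 fell and 8 did not pass (median 0.156). IL1B, an inducer of MMP1 in many cell types, averaged 64.2 ± 30.1 CPM in siUAP1 and 30.59 ± 13.2 CPM in control libraries (SD, n = 3 each; log2 fold change 1.06, SE 0.0621, edgeR adjusted p = 8.79e-12). In the groups alone the log2 fold change of IL1B was 1.07 (SE 0.395, edgeR adjusted p = 0.565). Its direction was opposite to that of MMP1. IL6 (1.78, SE 0.301) and IL1A (0.71, SE 0.208) rose and averaged under 4 CPM in both groups, and TGFB2 (0.65, SE 0.0634) rose as well. IL1A was not called when any 1 pair was left out, and STEAP1B overlaps IL6 with many times its counts, so IL6 is uncertain.

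**Figure D5:**
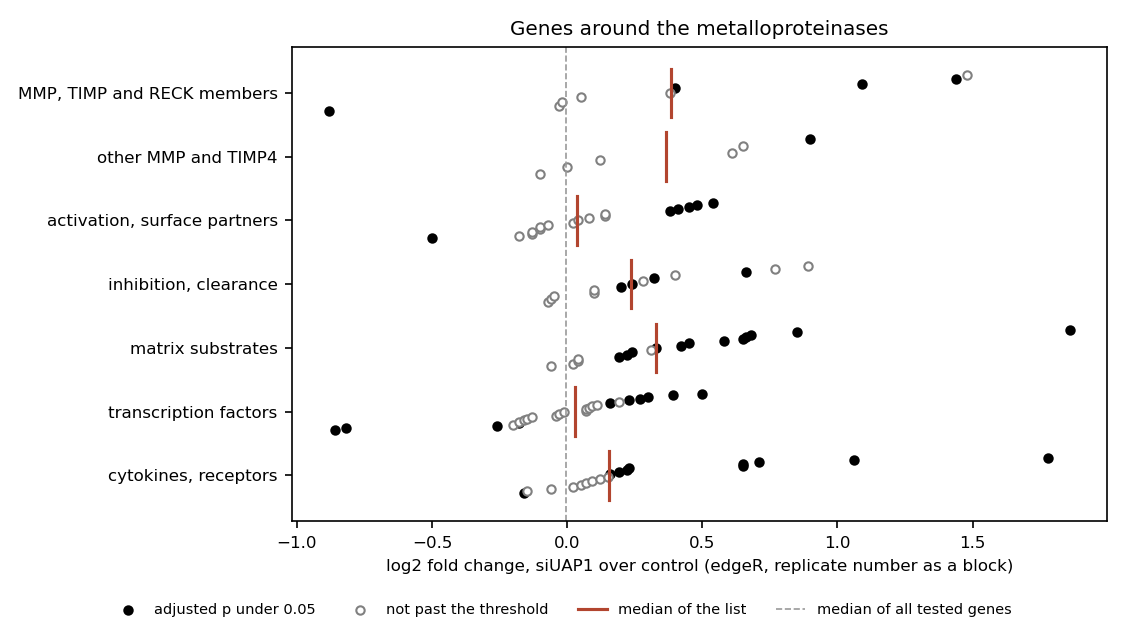
log2 fold change of siUAP1 over control (x axis, edgeR with the replicate number as a block) for every tested gene of each list (rows). Filled points have an adjusted p under 0.05 and open points do not, red lines are list medians and the dashed line is the median of all tested genes. The substrate genes lie mostly to the right of the dashed line (median 0.329), and the members include MMP1 at -0.88 and MMP2 at 1.44, which were picked for opposite differences.

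The plot of lists places the members among genes of related function, and MMP1, ETV5, EGR1 and PLAUR stand farthest to its left. The genes whose values over the 6 libraries were most like those of MMP1 were UAP1 (Pearson r = 0.998), MAD1L1 (0.994) and PDE4DIP (0.993), among 10334 genes that code for proteins and average 5 CPM or more. Those most like MMP2 were TTLL7 (0.999), NOTCH2 (0.996) and ZMIZ1 (0.995). These correlations are over log2 CPM of libraries that form the 2 groups, so the difference between the groups enters them, and 54 genes passed 0.95 for MMP1 and 103 for MMP2.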

How the data were processed

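Gene counts and FPKM were given for 6 ES2 libraries, with groups and replicate numbers taken from the sample titles. The authors deposited raw counts per gene and, in a second table, FPKM (counts per length and library total). The submitters' processing notes name GRCh38.p12 and DESeq2. Aligner, counter and strand use: not given in the sources used here. Library totals were 21267240 to 25972582, and their number limits precision for MMP10 and MMP15. Per the labels, RNA was polyA RNA.

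Counts were tested in R 4.3.3 with edgeR 4.0.16: TMM scaling, filterByExpr (minimum count 10), a quasi-likelihood test with Benjamini-Hochberg adjustment over 15768 genes at 0.05. The design set the fit of the groups alone as the main one and the replicate number as a block as an alternative. Same-numbered libraries correlated at 0.552, 0.454 and 0.584 in their deviations, each above the minimum of 0.1 set for pairing, so blocked values stand beside the others. Other alternatives were RLE scaling, library totals, other filters, DESeq2 1.42.0, limma 3.58.1 (voom, and FPKM on the log2 scale with a pseudocount of 1 or 0.1) and leaving out libraries. No library repeated another: within groups, chi-square over its degrees of freedom was 23.9 to 41.3. Coordinates are those of the deposited tables, 1-based.

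Members and lists were chosen with earlier results of these data known. Named genes are the 10 members, tested relatives, overlapping tested genes, up to 4 called genes of largest change per list, and the 3 genes most like MMP1 and MMP2. FURIN, ITGB3, JUN, JUNB, FOS, FOSB, FOSL1 and FOSL2 were named after their values were seen. Of the genes this rule gave, 1 is not reported here. CPM use library totals adjusted by TMM.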

Additional observations from a re-analysis of the deposited data

How the results depend on the processing

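Of 15768 genes, 17 were called in the fit of the groups alone. The count was 273 with no filter beyond 1 count, 165 with DESeq2, 1 to 3 with 1 library left out, and 2, 3 and 1 with limma on log2(FPKM + 1), on log2(FPKM + 0.1) and on log2(FPKM + 1) without a filter. With the replicate block (pairing) it was 2556, with RLE scaling 2539, with library totals 2587, with DESeq2 1311, with limma on FPKM 944, and 1195, 1987 and 2204 without replicate 3, 2 and 1. The members called were 1 (MMP1) in the groups alone, 3 with no filter (MMP1, MMP2 and TIMP3), 2 with DESeq2 (MMP1 and MMP2), 0 to 1 with 1 library left out and 0 in the 3 limma fits on FPKM without the block, where 2 to 4 members had an unadjusted p under 0.05. With the block the count was 4 under each scaling and tool tried, and 4 to 5 with 1 pair left out, the fifth being MMP15 without replicate 1. In the groups alone MMP1 was called without siUAP1 replicate 3 and not without any other library, and its log2 fold change stayed between -0.90 and -0.87 over all 23 alternatives. That of MMP2 ran from 1.19 to 1.68, of TIMP2 from 0.31 to 0.45 and of TIMP3 from 0.84 to 1.43. MMP3 had a value in 22 of the alternatives (0.04 to 0.78) and MMP15 in 15 (0.091 to 2.83). The 0.091 is from limma on log2(FPKM + 1) without a filter, where the pseudocount of 1 is larger than the FPKM of MMP15 in any library. TIMP2 and TIMP3 were called under every blocked alternative. MMP1 and MMP2 were picked for this contrast, so their calls under any alternative are no support. Values near 0 changed sign: MMP14 to 0.006 with the block without replicate 1 and to 0.02 without siUAP1 replicate 1, TIMP1 to 0.026 without siUAP1 replicate 2 and to 0.034 without control replicate 3, and RECK to -0.024 without siUAP1 replicate 2. With 1 library left out, MMP14 ran from -0.091 to 0.02, TIMP1 from -0.108 to 0.034 and RECK from -0.024 to 0.145. The cause was not tested. A fit that left an arm with 2 libraries took its spread from all libraries. Calls of the lists with 1 pair left out were an alternative added after seeing the data. Depth limits MMP10, MMP15 and the untested cluster genes.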
